A study of Zea mays with 19 samples.

Results

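miR396 is a plant microRNA family whose members in this table are 8 distinct small RNA sequences, out of 527 sequences counted in maize embryos. They were chosen by name: every entry whose name carries the number of this family, of either hairpin arm and under any species prefix, which gave 16 of the 782 deposited entries, 2 per sequence. Small RNAs were sequenced from dissected embryos of 2 inbred lines bred from the population Yuzong5, with the embryos of 5 seeds in each sample and 3 biological replicates in each of 6 groups. The groups were the late-germinating line Yu537A given gibberellin (GA3, 400 mg/L) and sampled at 53 h of germination, Yu537A without it at 6 h, 53 h and 78 h, and the early-germinating line Yu82 at 6 h and 53 h. The sample labels mention a GA3 pretreatment of Yu537A seeds without naming the groups that received it. The series' design names 1 group as treated, so the other Yu537A groups are called untreated here on that basis alone. All seeds were harvested mature and germinated on moist filter paper. A further library, a degradome that captures the 5′ ends of cleaved transcripts, belongs to no group.

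In plants, miR396 pairs with transcripts of growth-regulating factors (GRFs), transcription factors with a QLQ and a WRC domain that promote cell proliferation in young organs. Pairing leads to cleavage of the transcript opposite the middle of the small RNA, and raised miR396 is known to give smaller leaves with fewer cells in Arabidopsis. Gibberellin, the hormone given here, promotes germination of cereal seeds.

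The sequences are shown because the family falls into 2 main kinds of 5′ end. Bases 2 to 8, the seed, are in capitals; plant microRNAs pair with their targets along nearly their whole length, and mismatches in this 5′ part are tolerated least. The first 5 share the seed TCCACAG.
zma-miR396a-5p: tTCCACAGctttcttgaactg
zma-miR396e-5p_R-1: tTCCACAGctttcttgaact
gma-miR396a-5p_1ss21GA: tTCCACAGctttcttgaacta
zma-miR396g-5p_1ss2CT: tTCCACAGctttattgaactg
osa-miR396e-5p_L+1: cTCCACAGgctttcttgaactg
The next pair has the seed CCACAGG.
zma-miR396c_L-1: tCCACAGGctttcttgaactg
osa-miR396d: tCCACAGGctttcttgaacgg
The last comes from the 3′ arm of the hairpin and has the seed TTCAATA.
zma-miR396a-3p: gTTCAATAaagctgtgggaaa

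The suffix L-1 says that zma-miR396c_L-1 lacks the first base of its miRBase form, and that form equals zma-miR396a-5p with 1 G added. The missing first base is what moves the seed of zma-miR396c_L-1 by 1 position. zma-miR396e-5p_R-1 equals zma-miR396a-5p without its last base. Counting from 1 at the 5′ end, gma-miR396a-5p_1ss21GA differs from zma-miR396a-5p by G21A and zma-miR396g-5p_1ss2CT by C13A, and osa-miR396d differs from zma-miR396c_L-1 by T20G. A prefix names the species of the miRBase entry that matched (zma maize, osa rice, gma soybean), and all samples were maize.

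zma-miR396a-5p was assigned to 2 deposited precursors, zma-MIR396a on chromosome 4 (176326883 to 176327019, plus strand) and zma-MIR396b on chromosome 9 (15122740 to 15122875, minus strand). zma-miR396c_L-1 was assigned to zma-MIR396c on chromosome 2 (1951700 to 1951773, minus strand) and zma-MIR396d on chromosome 10 (148727703 to 148727776, plus strand). The sources used here give neither the genome build of these positions nor the genes around them. On chromosome 9, zma-MIR396b shares 118 bases with zma-MIR396h, which lies on the plus strand and carries zma-miR396g-5p_1ss2CT. The miRBase form of zma-miR396g-5p and the reverse complement of zma-miR396a-3p share an unbroken run of 19 bases. On chromosome 9 they were assigned to precursors on opposite strands of 1 place.

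Library totals ran from 42959 to 818801 counts, and the smallest count listed in a library was 2 to 4. Early-line totals were 42959 to 205757 and late-line totals 99071 to 818801. Markers of reproductive tissue, the miR2118, miR2275 and miR482 families, held small shares of the counts. miR2118 was listed in 17 of the 18 libraries, with at most 0.219% of a library's counts. miR482 was listed in 4 libraries, with at most 0.0415%, and no miR2275 sequence was listed. Levels are given as CPM, counts scaled to a common library total, after TMM scaling, which sets each library against the others through the bulk of its sequences. The TMM factors lay between 0.600 and 1.09 in late-line libraries and between 1.08 and 2.13 in early-line libraries, so the factors were mostly higher in the early line and met only near their limits.

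The family was carried by 2 of its 8 sequences. zma-miR396a-5p held 149422 of the 179188 miR396 counts (83.4%) and zma-miR396c_L-1 held 28765 (16.1%). With the arm taken from the names, the 5′ arm held 99.98% of the family's counts and the 3′ arm 43 counts in all. Sequences whose names give no arm were counted as 5′, among them osa-miR396d, which 1 deposited precursor lists in the 3′ arm. Sequences of 21 bases held 99.6%, 1 sequence of 20 bases 0.344% and 1 of 22 bases 0.0279%. By mean CPM over the 18 libraries zma-miR396a-5p was the 6th most abundant of all 527 sequences, at 29375 CPM, and zma-miR396c_L-1 was the 15th, at 6118 CPM. The other members ranked between 107 and 361.

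zma-miR396a-5p, the most abundant form, had 42367, 87119 and 17057 CPM in late-line embryos at 6 h, against 10868, 8616 and 18033 CPM in early-line embryos at 6 h. At 53 h it had 59087, 31210 and 29740 CPM in the untreated late line, against 5835, 8161 and 6806 CPM in the early line. At 6 h the groups overlapped, because late replicate 3 lay below early replicate 3, while at 53 h every late library was above every early one. Such a separation upwards at 53 h was found for 42 of the 223 sequences tested (18.8%).

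Averaged over 6 h and 53 h, zma-miR396a-5p was 4.75-fold higher in the late line. Its log2 fold change of 2.25 over the early line had an SE of 0.58 and an adjusted p of 0.0102, by edgeR's quasi-likelihood test with Benjamini-Hochberg adjustment over 223 sequences. In that comparison 17.5% of all sequences tested were called higher and 16.6% lower, 34.1% in all. Of the 4 miR396 sequences abundant enough to be tested, 2 were called higher and 0 lower. The call of zma-miR396a-5p held in all 25 alternatives run, with log2 fold changes from 1.32 to 2.50 and adjusted p from 3.5e-09 to 0.039. With library totals in place of TMM scaling its log2 fold change was 1.32, and the median of all sequences was -0.98 in place of -0.20, so relative to that median zma-miR396a-5p stood at 2.30 against 2.45. The same change of scaling turned the split of calls over all sequences to 24 higher and 71 lower, from 39 higher and 37 lower with TMM.

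At single times the line difference of zma-miR396a-5p missed the threshold. Its log2 fold change was 1.97 at 6 h (SE 0.81, adjusted p = 0.134 by edgeR) and 2.53 at 53 h (SE 0.83, adjusted p = 0.0619 by edgeR). No miR396 sequence was called by edgeR at either time, where 6.73% of all sequences were called at 6 h (2.69% higher, 4.04% lower) and 10.8% at 53 h (6.73% higher, 4.04% lower). At an unadjusted p under 0.05 there were 1 miR396 sequence at 6 h and 3 at 53 h, beside 61 and 93 of all 223. DESeq2 called 1 at each time, beside 32 and 52 of all sequences. By limma voom 0 were called at 6 h and 2 at 53 h, beside 47 and 69 of all sequences. Without late replicate 2, the library with the highest level at 6 h, the log2 fold change at 6 h was 0.91. The difference between the 2 line differences was 0.56 (SE 1.11, adjusted p = 1.00 by edgeR). In that test of line by time, edgeR called 0 of the 4 miR396 sequences and 0.0% of all 223. At an unadjusted p under 0.05 there were 0 and 17, and neither DESeq2 nor limma voom made any call.

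**Figure D1:**
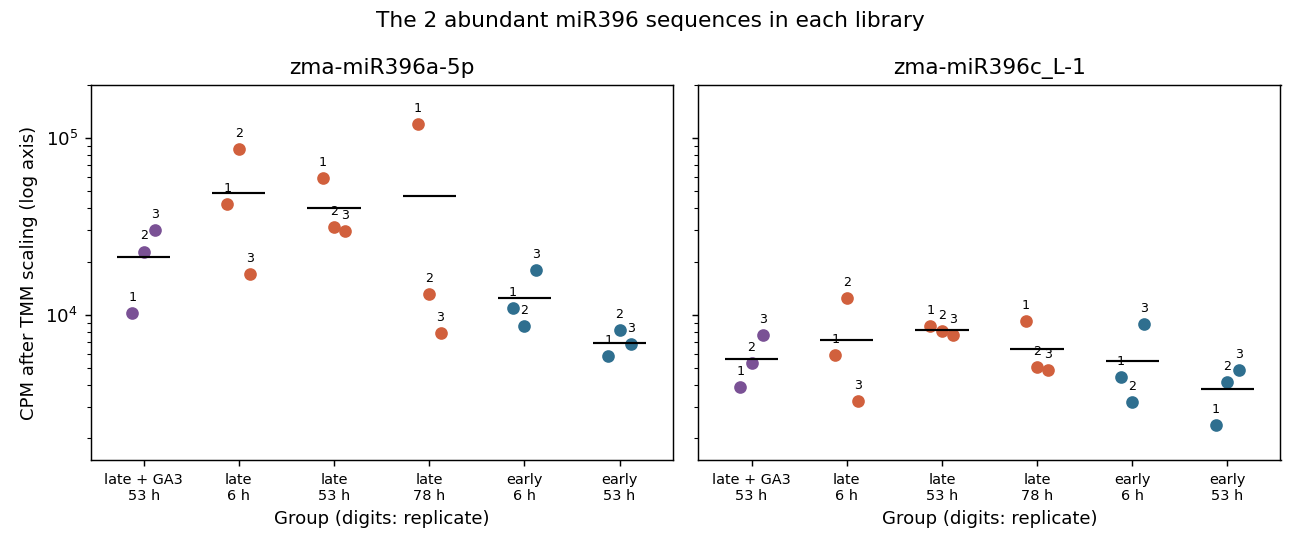
CPM after TMM scaling (log axis) of zma-miR396a-5p (left) and zma-miR396c_L-1 (right) in each of the 18 libraries; each point is 1 library, the digit is its replicate number and the bar is the mean of 3. zma-miR396a-5p lies at 29740 CPM or above in every untreated late-line library at 53 h and at 8161 CPM or below in the early line at 53 h, and late replicate 1 at 78 h stands at 119433 CPM.

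zma-miR396c_L-1, the second form, did not pass in any comparison of the lines. It had 5957, 12516 and 3246 CPM in the late line at 6 h, against 4441, 3203 and 8872 CPM in the early line at 6 h. At 53 h it had 8687, 8091 and 7706 CPM in the untreated late line, against 2373, 4174 and 4859 CPM in the early line. The groups overlapped at 6 h, where 8.52% of sequences separated upwards and 19.3% downwards, and they separated at 53 h, where the 3 late libraries lay close together. Averaged over both times its log2 fold change was 0.75 (SE 0.35, adjusted p = 0.109 by edgeR), which did not pass; without early 6 h replicate 3 it did (log2 fold change 1.02, adjusted p = 0.0453 by edgeR). With library totals its sign turned, to -0.15, although relative to the median of all sequences it then stood at 0.83, against 0.95 with TMM. The log2 fold change was 0.40 at 6 h (adjusted p = 0.679 by edgeR) and 1.10 at 53 h (adjusted p = 0.115 by edgeR).

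Summed over its sequences at 6 h, the family reached a mean of 56287 ± 40481 CPM in late embryos, against 18050 ± 7921 CPM in early embryos (SD over 3 libraries each). The means at 53 h were 48493 ± 17135 CPM in untreated late embryos, against 10782 ± 2249 CPM in early embryos (SD over 3 libraries each). As a description, the log2 fold change of the sum was 1.48 (SE 0.61) at 6 h, 1.90 (SE 0.62) at 53 h and 1.69 (SE 0.43) over both. At 6 h it was 0.80 without late 6 h replicate 2 and 2.32 without the 3 late libraries that listed fewest sequences. As a plain share of all counts, which needs no scaling, miR396 held 3.47%, 7.08% and 1.70% in late libraries and 1.89%, 1.82% and 2.92% in early libraries at 6 h. At 53 h it held 4.23%, 3.42% and 3.78% in untreated late libraries and 1.41%, 1.55% and 2.50% in early ones. The shares overlap at 6 h and do not at 53 h, and how many other families separate in this way was not counted. In these libraries a lower number of cells that make a small RNA and less of it per cell cannot be told apart.

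Depth moved with these levels inside groups. In 5 of the 6 groups the library with the most counts also held the highest miR396 share, and the part of depth in the line difference was not tested. Of the 5 late libraries below the 205757 counts of the deepest early library, late 6 h replicate 1 (106006 counts) held 3.47% and late 53 h replicate 3 (99071 counts) held 3.78%, both above the early range of 1.41% to 2.92%. The other 3 lay within or below it: late 6 h replicate 3 (158881 counts) held 1.70%, late 78 h replicate 2 (156588 counts) 1.99% and late 78 h replicate 3 (169865 counts) 1.19%. At near-equal depth, late 6 h replicate 3 was below early 6 h replicate 2 (160421 counts), at 1.82%.

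Shares within the family need no scaling between libraries, and at 6 h and 53 h that of zma-miR396c_L-1 did not overlap between the lines. zma-miR396c_L-1 made up 12.3%, 12.5% and 15.9% of miR396 counts in the late line at 6 h, against 29.0%, 27.0% and 32.9% in the early line at 6 h. At 53 h it made up 12.7%, 20.4% and 20.5% in the untreated late line, against 28.9%, 33.7% and 41.3% in the early line. At both times every late library was below every early one, while 78 h replicates 2 and 3 of the late line, at 27.5% and 38.1%, lay within the early range. Put as a ratio, there were 5.25 to 7.11 counts of zma-miR396a-5p for each count of zma-miR396c_L-1 in the late line at 6 h, against 2.03 to 2.69 in the early line at 6 h. At 53 h the ratio was 3.86 to 6.80 in the untreated late line, against 1.40 to 2.46 in the early line. No test is given for these shares, and how often shares within other families separate was not counted. The 95% Wilson interval of the share was widest in the shallowest library, early 53 h replicate 3, at 38.4% to 44.3%. Among late libraries it was widest in 78 h replicate 3, at 36.0% to 40.2%. Intervals cover counting error within 1 library only, and may be too narrow for that, since reads carried no molecular identifiers.

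**Figure D2:**
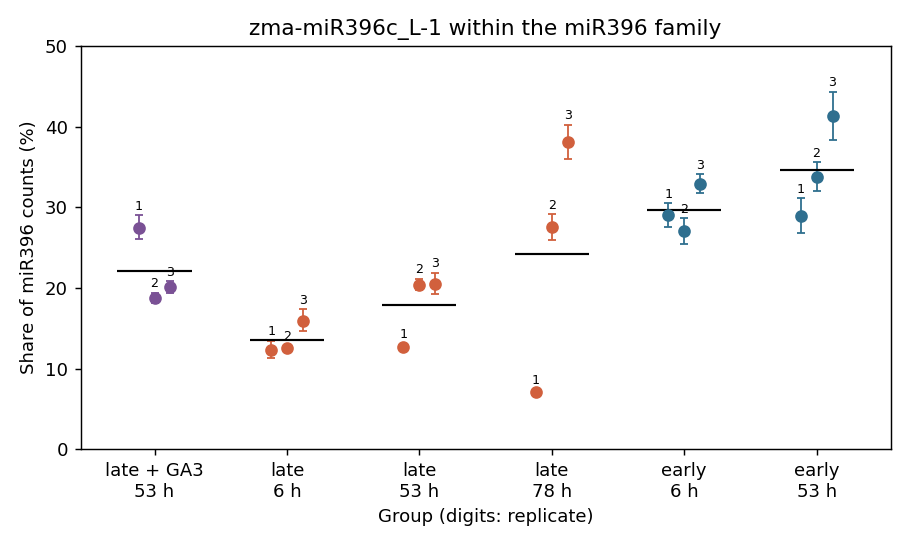
Share of miR396 counts held by zma-miR396c_L-1 (%, vertical axis from 0) in each library by group; points are libraries with 95% Wilson intervals for counting error, digits are replicates and bars are means of 3. The late line at 6 h and 53 h lies between 12.3% and 20.5%, below the early line at 27.0% to 41.3%, and the 3 late libraries at 78 h spread from 7.11% to 38.1%.

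GA3 was compared with no GA3 in the late line at a matched time of 53 h. zma-miR396a-5p had 10289, 22816 and 30259 CPM with GA3, against 59087, 31210 and 29740 CPM without. Treated replicate 3 lay above untreated replicate 3, so the groups overlapped. The log2 fold change was -0.92 (SE 0.79, adjusted p = 1.00 by edgeR), and from -1.02 to -0.39 over 19 alternatives, none of which called it. zma-miR396c_L-1 had 3900, 5320 and 7667 CPM with GA3, against 8687, 8091 and 7706 CPM without. All treated libraries were below all untreated ones, by a margin of 7667 against 7706 CPM at the closest. A separation downwards was found for 5 of the 223 sequences tested (2.24%) and one upwards for 8.52%. Its log2 fold change was -0.54 (SE 0.49, adjusted p = 1.00 by edgeR).

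Neither form passed the test for a change with GA3. edgeR called 0 of the 4 miR396 sequences and 0.0% of all 223 in this comparison, with 0 and 9 at an unadjusted p under 0.05. DESeq2 and limma voom also called 0 in each. miR396 as a whole held 1.49%, 2.88% and 2.72% of counts with GA3, against 4.23%, 3.42% and 3.78% without, which do not overlap. How many other families separate in this way was not counted. The summed level had a mean of 26919 ± 12059 CPM in treated embryos, against 48493 ± 17135 CPM in untreated ones (SD over 3 libraries each), a log2 fold change of -0.82 (SE 0.60) given as a description. zma-miR396c_L-1 held 27.5%, 18.7% and 20.1% of the family with GA3, against 12.7%, 20.4% and 20.5% without, and these overlap.

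GA3-treated embryos of the late line were also set against the early line at the same 53 h. zma-miR396a-5p was higher in each treated library, at 10289 CPM or more, than in any early library, at 8161 CPM or less. That was also so for 22.9% of the sequences tested, and 14.3% separated downwards. Its log2 fold change of 1.61 did not pass (SE 0.80, adjusted p = 0.188 by edgeR). Of all sequences 6.73% were called, 4.48% higher and 2.24% lower. Of miR396 sequences edgeR, DESeq2 and limma voom called 0, and 0 were under 0.05 before adjustment. Both comparisons at 53 h use the same treated libraries. The share of zma-miR396c_L-1 in the family, 18.7% to 27.5% with GA3, was below the 28.9% to 41.3% of the early line, with no test given.

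Within each line, time brought no miR396 call. In early embryos zma-miR396a-5p had a mean of 6934 ± 1168 CPM at 53 h, against 12505 ± 4917 CPM at 6 h (SD over 3 libraries each). All 3 libraries at 53 h lay below all 3 at 6 h, which was so for 13.5% of the sequences tested. The log2 fold change of -0.85 did not pass (SE 0.79, adjusted p = 0.724 by edgeR, in a comparison with 1.35% of all sequences called). In the late line the log2 fold change was -0.29 for 53 h against 6 h (SE 0.78), 0.23 for 78 h against 53 h (SE 0.78) and -0.06 for 78 h against 6 h (SE 0.78), each with an adjusted p of 1.00 by edgeR. Without late 78 h replicate 1 the difference was -1.86 for 78 h against 53 h and -1.95 for 78 h against 6 h, which did not pass (adjusted p = 0.236 and 0.0861 by edgeR). Of all sequences, 1.35% were called higher and 0.448% lower for 53 h against 6 h (1.79% in all), 0.0% for 78 h against 53 h, and 4.93% higher and 0.897% lower for 78 h against 6 h (5.83% in all). For 78 h against 53 h 17 of the 223 were under an unadjusted 0.05, DESeq2 called 0 and limma voom 1. In all 4 comparisons of times edgeR called 0 miR396 sequences, as did DESeq2 and limma voom, and none of the 4 was under 0.05 before adjustment.

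For zma-miR396a-5p the late line at 78 h was the group with the largest SD, 62928 CPM around a mean of 46832 CPM. zma-miR396a-5p had 119433, 13134 and 7928 CPM in its 3 libraries. zma-miR396c_L-1 had 9184, 5042 and 4880 CPM in the same libraries, a much smaller spread. Replicate 1 combined the highest level of zma-miR396a-5p in the series with the lowest share of zma-miR396c_L-1, 7.11%, while replicates 2 and 3 held 27.5% and 38.1%. Replicate 1 is also the deepest of the group, with 437396 counts against 156588 and 169865.

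The late line at 78 h was set against the early line at 53 h, which differ in line and in time. zma-miR396a-5p passed, with a log2 fold change of 2.76 (SE 0.83, adjusted p = 0.0478 by edgeR). Of all sequences 8.97% were called there, 6.28% higher and 2.69% lower. The groups overlapped, since late replicate 3 had 7928 CPM and early replicate 2 had 8161 CPM. That 1 call of the 4 sequences rested on late replicate 1, without which the log2 fold change was 0.50 and the adjusted p 0.649. It was also lost without any 1 of the 3 early libraries and in 10 other alternatives. Against the late line at 78 h, GA3-treated embryos at 53 h had a log2 fold change of -1.15 for zma-miR396a-5p (SE 0.79, adjusted p = 1.00 by edgeR), and of 1.10 without late 78 h replicate 1. There edgeR called 0 miR396 sequences and 0.0% of all 223, with 0 and 13 under 0.05 before adjustment, and DESeq2 and limma voom called 0 of either.

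**Figure D3:**
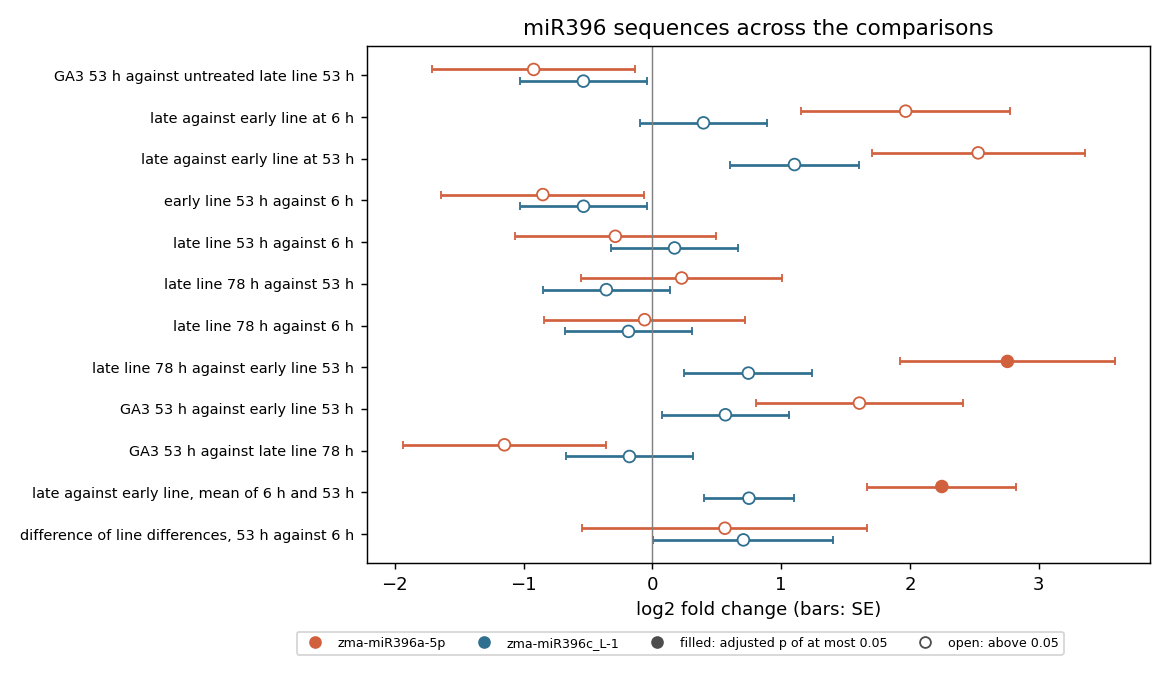
log2 fold changes (horizontal axis, bars are SE) of zma-miR396a-5p and zma-miR396c_L-1 in the 12 comparisons; filled points have an adjusted p of at most 0.05 over 223 sequences. The filled points are zma-miR396a-5p in the late line at 78 h against the early line at 53 h (2.76) and in the late against the early line averaged over 6 h and 53 h (2.25).

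The 6 minor sequences together held at most 0.92% of the family in any library. zma-miR396e-5p_R-1, the 20-base form, was listed in 9 of 12 late libraries and 3 of 6 early libraries, with 4 to 158 counts. It had 0, 101 and 10 counts in the late line at 6 h and 158, 73 and 4 in the untreated late line at 53 h, against 0, 11 and 4 in the early line at 6 h and 0, 0 and 9 in the early line at 53 h. With GA3 it had 0, 80 and 32 counts, and in the late line at 78 h 118, 17 and 0. The average line difference was 2.59 on the log2 scale (SE 1.50, adjusted p = 0.185 by edgeR).

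gma-miR396a-5p_1ss21GA had 0, 31 and 0 counts in the late line at 6 h, 49, 12 and 9 in the untreated late line at 53 h, 20, 0 and 0 in the late line at 78 h and 0, 0 and 18 with GA3, against 0 in all 6 early libraries. It was the other sequence called higher in the average over 6 h and 53 h (adjusted p = 0.0315 by edgeR). A fitted fold against libraries at 0 depends on the fit and is not given. The call was lost without late 6 h replicate 2 (adjusted p = 1.00), in 8 of the other 11 fits that left out 1 library, with the replicate number as a block, in DESeq2 and without the 3 late libraries that listed fewest sequences. In the late libraries it amounted to 0.101% of zma-miR396a-5p, and at that share the early libraries would hold 0.631 to 4.07 counts, near or below the smallest counts listed. The early libraries were thus too shallow to show whether it is absent there.

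osa-miR396d was listed in 7 of 12 late libraries and 2 of 6 early libraries, with 8 to 22 counts. It had 0, 22 and 0 counts in the late line at 6 h, 21, 20 and 0 at 53 h, 10, 8 and 0 at 78 h and 0, 12 and 11 with GA3, against 0, 0 and 12 in the early line at 6 h and 0, 8 and 0 at 53 h. osa-miR396e-5p_L+1 was listed in 4 late libraries with 10 to 16 counts: 10 and 16 in GA3 replicates 2 and 3, 11 in late 6 h replicate 2 and 13 in late 78 h replicate 1. zma-miR396a-3p, from the arm that is mostly discarded, was listed in 3 late libraries with 10 to 17 counts, and zma-miR396g-5p_1ss2CT in 3 late libraries with 4 to 18. None of those 3 was listed in the early line. Their shares in late libraries were taken of zma-miR396c_L-1 for osa-miR396e-5p_L+1, and of zma-miR396a-5p for the others. At these shares, early libraries would hold at most 4.28, 1.26 and 0.82 counts of them, near or below the smallest counts listed. The early libraries were thus too shallow to show whether they are absent there.

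Over the 6 groups, 3 sequences outside the family lay nearest to zma-miR396a-5p in pattern, by the root mean square distance between centred group means of log2(CPM + 1), among 107 others whose mean reached 100 CPM. They were zma-miR164e-5p at a distance of 0.19, of a family that targets NAC transcription factors, zma-miR167e-5p_R+1 at 0.19, of a family that targets auxin response factors, and zma-miR827-3p at 0.31, of a family tied to phosphate supply. The median distance was 1.24, and zma-miR396c_L-1 of the same family stood at 0.58. They were chosen for this pattern, so their line difference is a description: on the log2 scale it averaged 1.70 for zma-miR164e-5p (SE 0.44), 1.84 for zma-miR167e-5p_R+1 (SE 0.46) and 1.74 for zma-miR827-3p (SE 0.51).

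Other families with targets in growth and meristem control (miR164, miR166, miR171, miR319, miR390 and miR394) had calls at about the rate of all sequences. Of their 39 sequences 29 could be tested. In the average line difference 5 were higher and 5 lower, with a median log2 fold change of -0.17 beside 39 higher, 37 lower and -0.20 over all 223 sequences. The higher ones were 3 of 15 miR166 sequences, 1 of 3 miR164 and 1 of 5 miR171, and the lower ones were 2 of 3 miR319, 1 of 2 miR390, 1 miR166 and 1 miR164. At 6 h 1 of the 29 passed, a lower miR319, and at 53 h 2 passed, a higher miR166 and a lower miR319, beside 6.73% and 10.8% of all sequences at these times. With GA3 their median was 0.00 on the log2 scale, as over all sequences.

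The degradome table holds 991 rows for miR396 sequences among 41969, and 410 of these had reads at the predicted position. They reduce to 139 positions on 114 transcripts, in 29 genes with an identifier and 17 loci assembled by the authors' tools. Category 0, the class in which the position has the highest read number of its transcript, held 38 of the 139 positions (27.3%), with 0 in category 1, 45 in category 2, 5 in category 3 and 51 in category 4. Among the 2862 detected positions of all other small RNAs, 199 (6.95%) were of category 0. Positions are counted per transcript in both, so the same reads can recur. The 201 reads of Zm00001d002429, for example, are listed on 4 of its transcripts and on an assembled one with equal normalized reads. Neither share is thus a count of separate cleavage events. No row of any other small RNA family shared a miR396 position. As these come from 1 library, they have no replicate check.

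Transcript annotations in the table name no growth-regulating factor, and gene names for these identifiers were not in the sources used here. Of the 29 genes, 13 carry the Gene Ontology terms for both DNA-templated transcription and developmental process. Of the 38 category 0 positions, 25 lie in those 13 genes, 12 in assembled transcripts with no terms and 1 in Zm00001d002048, whose term is RNA binding. Among the 13 genes, Zm00001d017742 and Zm00001d033876 had positions of category 2 only.

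The alignment to 9 of the genes was without penalty for osa-miR396d, so its reverse complement gives the site that 37 transcripts share, 12 of them assembled ones. Both deposited precursors of osa-miR396d have all 3 reading frames open on the opposite strand; whether they lie opposite a target gene was not tested. The site is shown with the bases from the deposited cleavage position onwards in capitals, 5′ to 3′.
site at penalty 0: ccgttcaagaaAGCCTGTGGA
The deposited position pairs with base 10 of osa-miR396d and of zma-miR396c_L-1. The alignment of zma-miR396a-5p, of 21 bases, to such a site spans 22 bases of the transcript. Counted along the transcript, the position is base 11 from the end of that alignment. With the C opposite the G that zma-miR396a-5p lacks left unpaired, the position again pairs with base 10.

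Reads at the strongest position were 201 in Zm00001d002429, 168 in Zm00001d026240, 117 in Zm00001d045533, 67 in Zm00001d013555 and 39 in Zm00001d051456, all of category 0. They were 15 in Zm00001d052112, 13 in Zm00001d035965 and 8 in Zm00001d017602, also of category 0 on at least 1 transcript, and 5 in Zm00001d017742, of category 2. These 9 are the genes with the penalty 0 site. The same 6 miR396 sequences are listed at each of these positions on the reads of the same fragments, so the degradome does not say which of them was at work. At these sites the penalty was 0 for osa-miR396d, 1 for zma-miR396c_L-1 and 3 for zma-miR396a-5p, although zma-miR396a-5p is the most abundant in the small RNA libraries and osa-miR396d held 0.0692% of the family. Fragments may be shared between genes here too. Zm00001d013555, on 4 transcripts, had 16.75 normalized reads for its 67 reads. Zm00001d026240, also on 4, had only 21.58 for its 168. The 201 reads of Zm00001d002429 had 27.13. The 201 and 168 reads may thus in part be the same fragments, and are not separate counts per gene.

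A second set of positions had near-equal reads in 4 genes: 83 in Zm00001d002048, Zm00001d013346 and Zm00001d033876, and 82 in Zm00001d006338. They were of category 0 except in Zm00001d033876, where they were of category 2. Their lowest penalty was 2.5, for osa-miR396d, with 3.5 for both zma-miR396a-5p and zma-miR396c_L-1. The deposited normalized reads there were 8.33 and 8.20, against 39.0 in Zm00001d045533, where the reads were 117. How the authors normalized them is not stated, but the values match a division of the reads over the transcripts that list them. For Zm00001d013555, 16.75 is its 67 reads divided over its 4 transcripts. For Zm00001d045533, 39.0 is the 117 reads divided over 1 transcript of the gene and 2 assembled ones. The contrast of 8.33 with 39.0 thus also carries the number of transcripts listed. The genes with 83 reads had the same normalized reads, so these positions may list the same fragments. The 82 reads of Zm00001d006338 may be among them, and the reads then do not tell the 4 genes apart. Zm00001d007465 had 6 reads at a position with a penalty of 2. The remaining genes with 5 or more reads were Zm00001d041982, annotated as a tRNA-modifying enzyme, with 20 reads, and Zm00001d047612 with 7, both of category 2 and at a penalty of 4 for zma-miR396a-5p.

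osa-miR396e-5p_L+1, which begins 1 base earlier than zma-miR396c_L-1, was placed 1 base further along. On 25 transcripts that next base had 1 to 4 reads and was below the main position in all 25, as in Zm00001d002429 with 4 against 201. zma-miR396a-3p had 8 rows and 0 with reads. At the position with 201 reads, the deposited p-value was 0.186 for osa-miR396d at penalty 0 and 0.127 for zma-miR396g-5p_1ss2CT at penalty 4, so it did not follow the alignment. A limit of 0.05 on the p-value would leave 9 of the 38 category 0 positions, none of them at penalty 0.

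**Figure D4:**
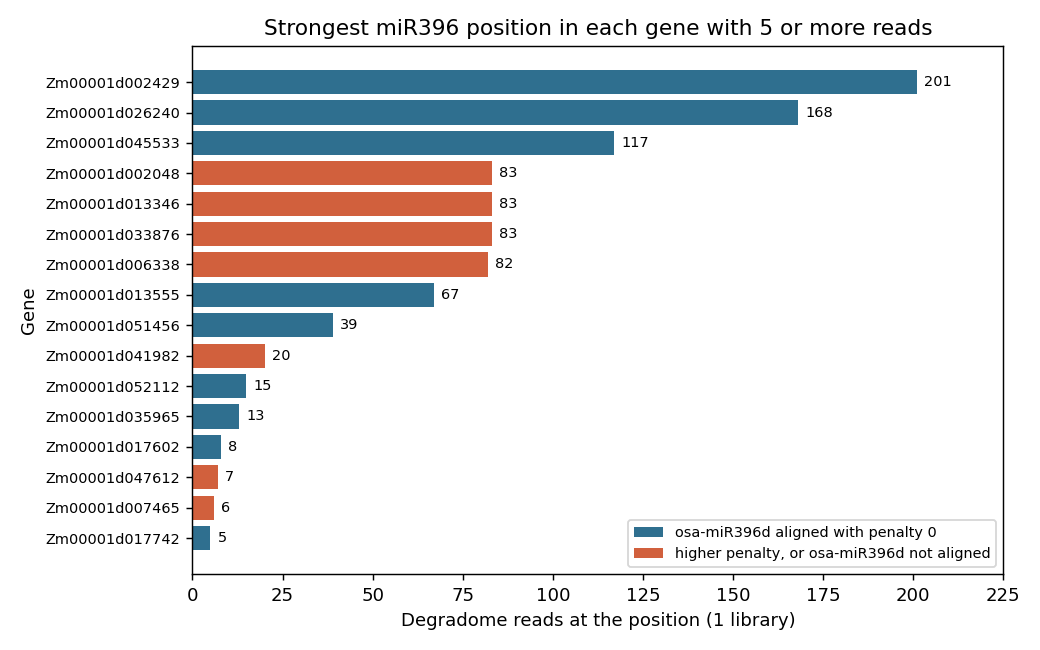
Degradome reads (horizontal axis from 0, 1 library) at the strongest miR396 position of each gene with 5 or more reads; bars are genes with an identifier, and the colour gives whether osa-miR396d aligned with penalty 0. Zm00001d002429 (201 reads), Zm00001d026240 (168) and Zm00001d045533 (117) lead, all at penalty 0. Next come 4 genes with 82 or 83 reads at a higher penalty, which may be reads of the same fragments. The reads of Zm00001d002429 and Zm00001d026240 may also in part be of the same fragments.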

How the data were processed

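The deposited miRNA table gives expected counts per precursor entry for 18 small RNA libraries, and the authors divided the reads of a sequence over its entries, per the file headers and values. Entries were summed to 536 sequences and rounded; 9 with equal values in all libraries (listed in at least 2) were merged, leaving 527. A second deposited column per library holds a normalized signal, used in 1 alternative. The deposited degradome table gives whole read counts per position, 2 signal columns, a p-value not described as adjusted, an alignment score (penalty) and, as another measure, the authors' category of 0 to 4. The sources used here name neither tools nor genome build. The miRNA and degradome tables as used had 9 and 5176 empty lines.

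Counts were tested in edgeR 4.0.16 (R 4.3.3): filterByExpr at a minimum count of 10 (223 sequences kept), TMM, 1 mean per group over 18 libraries, two-sided quasi-likelihood F test, Benjamini-Hochberg adjustment, threshold 0.05. SE was taken as the log2 fold change divided by √F. The script was tested on simulated data. Alternatives used DESeq2 1.42.0 and limma 3.58.1; the rest ran in Python 3.11.15 (matplotlib 3.10.9, scipy 1.17.1, numpy 2.4.6, pandas 2.3.3). They also covered RLE scaling, library totals, the filter, merging, the groups fitted, a replicate block and leaving out libraries. Totals were 42959 to 818801 counts. A listed 0 may hide counts below the listing limit.

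The members and lists were chosen with earlier results of these data known. Named were the 6 most abundant members, any past the threshold, the 3 outside sequences of nearest pattern, and degradome positions of category 0 or 1. No annotation named a growth-regulating factor, so positions were split by Gene Ontology terms instead, chosen after the data were seen, and positions of lower category in genes with 5 or more reads were named likewise. Like-numbered replicates did not correlate above 0.1 in all 3 pairs of any comparison, so the numbers were not taken as pairs.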

Additional observations from a re-analysis of the deposited data

How the results depend on the processing

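The higher level of zma-miR396a-5p in the late line over 6 h and 53 h kept its call in all 25 alternatives, while counts of called miR396 sequences moved in other places; causes were not tested. That average gave 1 call in place of 2 with the replicate block, with 1 entry per sequence, in DESeq2, without the 3 late libraries of fewest sequences and with only the compared groups fitted, and 1 to 2 when 1 library was left out. At 6 h there was 1 call with no filter and in DESeq2. At 53 h there was 1 with no filter, in DESeq2 and with only the compared groups, and there were 2 in limma voom and on the deposited signal. The late line at 78 h against the early line at 53 h lost its call (0) with RLE scaling, library totals, the replicate block, 1 entry per sequence, equal sequences kept apart, sequences with equal values per entry merged (chosen after seeing the data), limma voom, the deposited signal, without the 3 late libraries and with only the compared groups, and had 0 to 1 when 1 library was left out. GA3 against the early line gave 1 with no filter.

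Leaving out 1 library moved the family's log2 fold change to between -1.55 and 0.45 for 78 h against 53 h, -1.62 and 0.57 for 78 h against 6 h, 0.35 and 2.22 for 78 h against the early line at 53 h, and -1.11 and 0.74 for GA3 against 78 h. The lower bounds of the first 3 and the upper bound of the last are without late 78 h replicate 1.

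Signs of uncalled values turned as follows. For zma-miR396a-5p, 78 h against 53 h was -0.0056 with library totals, -0.69 in limma voom and -0.58 on the deposited signal, and ran from -1.86 to 0.64 with 1 library left out; 78 h against 6 h was 0.058 with a minimum count of 5 and 0.017 with equal sequences kept apart, and ran from -1.95 to 0.71; 53 h against 6 h ran from -0.66 to 0.74 and GA3 against 78 h from -1.44 to 1.10; the line by time difference was -0.12 without the 3 late libraries. For zma-miR396c_L-1, the line difference at 6 h was -0.34 and the average -0.15 with library totals, the difference at 6 h ran from -0.55 to 0.91 with 1 library left out, and the line by time difference was -0.031 without the 3 late libraries. The replicate block gave 2.16 for zma-miR396a-5p in the line average (adjusted p = 0.0188), against 2.25 without it. Shares of zma-miR396c_L-1 within the family moved by less than the spread between replicates with maize names alone or 1 entry per sequence. Degradome positions of category 0 or 1 numbered 38, those of category 0 to 2 83, and 9 of the 38 had a p-value of at most 0.05. Totals from 42959 to 818801 counts and a listing limit of 2 to 4 counts restrict the minor sequences.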

Other observations

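The deposited precursors of osa-miR396d lie on chromosome 10 (141716642 to 141716745) and chromosome 6 (62970852 to 62971003), both on the plus strand. On 1 the sequence is listed in the 3′ arm and on the other in the 5′ arm. Read on the opposite strand, where its reverse complement is the penalty 0 site of the degradome, all 3 reading frames of both precursors run without a stop codon, over 104 and 152 bases with 72.1% and 67.1% G and C. Of the other 14 miR396 entries, the 4 with all 3 frames open are 27 to 74 bases long, and the 10 longer ones have 0 to 2 open frames on that strand. Gene annotation of this build was not used here.

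On chromosome 5, the precursor listed for gma-miR396a-5p_1ss21GA on the minus strand shares 35 bases with zma-MIR396g on the plus strand, and on chromosome 9 its other precursor shares 90 bases with zma-MIR396b on the same strand and 96 with zma-MIR396h on the opposite one.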
